A study of Cervus nippon with 12 samples.

Results

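The names bta-miR-146a, bta-miR-146b, bta-miR-147 and bta-miR-155 were the 4 names of the miR-146, miR-147 and miR-155 genes among the 545 miRNAs listed for each of 12 small RNA libraries of antler cells of sika deer (Cervus nippon). They were chosen by their number, from miRNAs known for roles in inflammation, at a time when results of these libraries for all groups were already known. Their levels and differences are therefore given as a description, and the p-values printed with them come from fits across all miRNAs tested and are not independent evidence about these names. In 3 of the 4 groups, reserve mesenchyme cells (RMCs), the mesenchymal stem cells of the antler growth centre, were held in chondrogenic medium for 0 days (CP_0), 7 days (CP_7) or 14 days (CP_14), and the fourth group held antler chondrocytes (CC). Each group had 3 libraries. All cells were wild type and were grown in culture from antler tips of male deer aged 3 years. The methods call the replicates of a group biological, but the labels do not tie its libraries to separate animals, so that p-values measure the spread between these libraries.

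miR-155 is processed from the BIC transcript, which is induced by NF-kappaB and AP-1 in activated immune cells, and it is known to repress SOCS1 and SHIP1, brakes on cytokine and phosphoinositide signalling. miR-146a and miR-146b come from separate genes, share a seed and repress IRAK1 and TRAF6, adaptors below Toll-like and interleukin-1 receptors, so that they act as a negative feedback. miR-147 is induced by Toll-like receptor signals in macrophages and dampens their cytokine output. miR-155 and miR-146a have also been studied in osteoarthritic cartilage. The deposited values carry cattle names for deer reads. No name shared its reads with miR-146b, miR-147 or miR-155 in every library within 1%. miR-146a, with 9 reads in all, was too low for this check.

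The libraries held between 539455 reads (CP_7) and 10256572 reads (CC), and miR-21-5p alone took 21.4% to 24.3% of the reads in CP_7, 45.0% to 53.9% in CP_14, 59.5% to 61.7% in CP_0 and 72.9% to 76.9% in CC. Levels are therefore given as RPM, the reads on a miRNA scaled so that each library sums to 1000000, divided by a composition factor (TMM), which ran from 0.559 in a CC library to 2.09 in a CP_7 library, and are called normalized RPM here. Reads rather than molecules were counted, so that a higher level of one miRNA than of another describes the libraries and not the cells. miR-140, the marker of chondrocytes, had 17000 ± 725 (SD, n = 3) normalized RPM in CC, 10756 ± 417 in CP_0 and 5100 ± 312 in CP_7. Without the composition factor it had 10237 ± 676, 9443 ± 795 and 9759 ± 921 RPM. In CP_14 it had 9818 ± 199 normalized RPM, and 9750 ± 387 RPM without the factor. Its log2 fold change in CC against CP_0 was 0.53 with TMM factors and 0.12 with library size alone (limma adjusted p = 0.244). It was 1.61 with unscaled reads, and the other scalings named below gave 0.51 to 0.80. The size of its excess in CC over CP_0, and whether it was called, thus depended on the scaling. CP_0 replicate 3 stood apart, with 6933 reads of the erythroid miR-451 against 27 and 29 in the other CP_0 libraries. Within CP_7, replicate 3 had 1658 reads of the endothelial miR-126-3p against 143 and 333, and replicate 1 had 1430 reads of miR-9-5p against 111 and 76.

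The 4 miRNAs took different courses. miR-155 was abundant in every group and reached its highest level at day 7, miR-147 was low at day 0 and reached its highest level at day 14, miR-146b lay between 2.30 and 20.7 normalized RPM in all libraries, and miR-146a was hardly detected. In the fits, where a miRNA was called at an adjusted p below 0.05 (limma with Benjamini-Hochberg adjustment over all miRNAs tested), miR-155, miR-147 and miR-146b passed the filter on low counts in each of 6 comparisons and miR-146a in none. Of these 4 names, miR-155 and miR-147 were called higher in CP_7 than in CP_0, and of all 246 miRNAs tested 63.8% were called, 35.8% higher and 28% lower. From CP_7 to CP_14 the calls were miR-147 higher and miR-155 lower, with 52.8% of all 246 called, 24.4% higher and 28.5% lower. In CC against CP_14 they were miR-146b higher and miR-147 lower, with 74.6% of all 276 called, 37.7% higher and 37% lower. In CP_14 against CP_0, miR-155 and miR-147 were called higher, with 46% of all 250 called, 24.8% higher and 21.2% lower. In CC against CP_0, miR-147 was called higher, with 55.8% of all 260 called, 30% higher and 25.8% lower. In CC against CP_7, miR-155 and miR-147 were called lower, with 67.4% of all 276 called, 29% higher and 38.4% lower. Nothing is read from the number of calls among these names beside such shares, and the comparisons share libraries with each other.

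**Figure D1:**
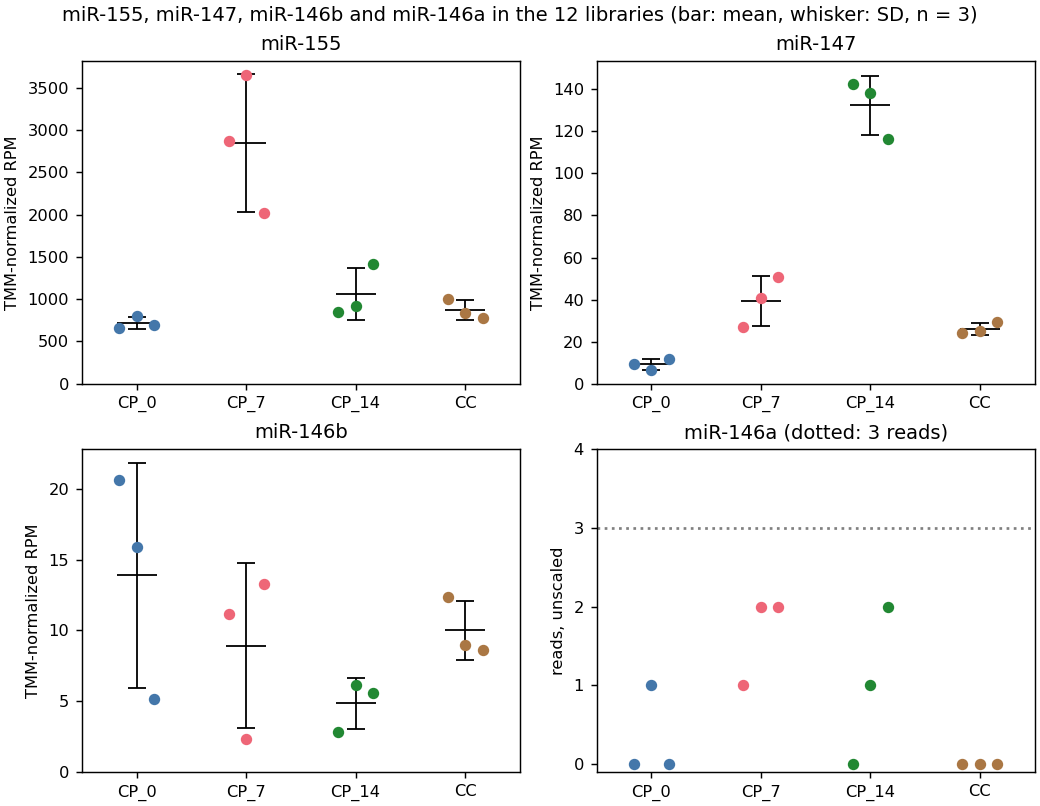
Level of miR-155, miR-147 and miR-146b (y axis, TMM-normalized RPM, linear scale from 0) and unscaled reads of miR-146a (y axis of the lower right panel) in the CP_0, CP_7, CP_14 and CC libraries. Each point is a library and bars with whiskers are the mean and SD of 3 libraries. miR-155 peaks in CP_7 (mean 2847) and miR-147 in CP_14 (mean 132.4). The miR-146b groups overlap, except CC and CP_14. No library passes 2 reads of miR-146a, below the dotted line at 3 reads.

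CP_0 replicates 1, 2 and 3 held miR-155 at 660.4, 796 and 690.0 normalized RPM, the CP_7 libraries at 2868, 3655 and 2019, the CP_14 libraries at 852, 921 and 1409.8, and the CC libraries at 1002, 835 and 777. All 3 CP_7 libraries lay above every library of the other groups, and CP_14 lay above CP_0 without overlap, while CC overlapped with both CP_0 and CP_14. The means were 715 ± 71.3 (SD, n = 3) in CP_0, 872 ± 117 in CC, 1061 ± 304 in CP_14 and 2847 ± 818 in CP_7. By reads, miR-155 was at places 21 to 26 of the 545 listed miRNAs in the CP_7 libraries and at places 35 to 44 in all others. Behind these levels stood at least 1823 reads of miR-155 in every library and at most 6354, so that counting error was small for it.

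miR-155 rose in the first 7 days, by 2.01 on the log2 scale (SE, the standard error, 0.194; limma adjusted p = 9.99e-05). It then fell towards day 14, with a log2 fold change of -1.50 (SE 0.253, limma adjusted p = 0.00229) that came to -0.28 with unscaled reads and was not called there. Chondrocytes had less miR-155 than the day 7 cells (-1.95, SE 0.188, limma adjusted p = 0.000105), and the difference was -1.23 without CP_7 replicate 2 and 0.38 with unscaled reads, where it was not called. Among all miRNAs tested, the median log2 fold change was 0.075 from CP_0 to CP_7 and -0.089 from CP_7 to CC. CC did not differ from CP_14 beyond the spread of the libraries (-0.26, SE 0.168, limma adjusted p = 0.174), nor from CP_0 (0.15, SE 0.111, adjusted p = 0.301), with the composition factor. Between CP_14 and CP_0 the log2 fold change of 0.55 (SE 0.188) had an adjusted p of 0.0461 by limma, and this call was lost in 13 of 20 alternative settings, among them leaving out CP_0 replicate 1 (0.50), 2 (0.64) or 3 (0.52) or CP_14 replicate 2 (0.60) or 3 (0.30). In the order CP_0, CC, CP_14 and CP_7, the last step was thus the one between neighbours that went beyond the spread.

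The size of the day 7 peak of miR-155 depended on the scaling. With library size alone, miR-155 averaged 5351 ± 1007 RPM in CP_7, 1044 ± 239.8 in CP_14, 626 ± 42.9 in CP_0 and 522 ± 33.3 in CC, which is 8.55-fold higher in CP_7 than in CP_0 by the ratio of the means, against 3.98-fold with the composition factor. The log2 fold change between these groups was 3.08 with library size alone and 0.85 with unscaled reads, where it was not called (adjusted p = 0.0766), and it was above 0 in each of the 6 scalings. The median of all miRNAs moved too, from 0.075 to 1.12 with library size alone and to -1.04 with unscaled reads. A change of scaling shifts all miRNAs of a library nearly alike. That miR-155 lay above the median in each of these 3 is therefore no separate support for the peak. In the comparisons of CC with CP_14 and with CP_0, the direction of miR-155 turned with the scaling. Against CP_14 the log2 fold change was -0.98 with library size alone and called, 0.083 with miR-21-5p left out, and 0.66 with unscaled reads and called. Against CP_0 it was called in all 3 of these settings, at -0.26 with library size alone, 0.42 with miR-21-5p left out and 1.23 with unscaled reads.

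The leukocyte markers miR-142-5p, miR-142-3p, miR-150 and miR-223 summed to 0.657 to 10.4 normalized RPM in the CP_7 libraries, where miR-155 was highest, to 2.59 to 36.6 in CP_0, 23.5 to 34.6 in CP_14 and 11.4 to 15.7 in CC. The upper end in CP_0 was replicate 3, and the other CP_0 libraries, at 2.59 and 5.80, lay within the range of CP_7. The CP_7 sums came from 1 to 18 reads, and miR-223, a marker of myeloid cells, had 0 reads in all 3 CP_7 libraries, which allows up to 2.91 to 5.56 RPM by counting error alone (3 reads). In these bulk libraries fewer cells of a type and less RNA per cell cannot be told apart.

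For miR-147 the CP_0 libraries had 9.42, 6.63 and 11.6 normalized RPM, the CP_7 libraries 26.9, 40.8 and 50.5, the CP_14 libraries 142.6, 138.2 and 116.3, and the CC libraries 23.9, 25.3 and 29.3. The CP_14 libraries lay above all others and the CP_0 libraries below all others, while CP_7 and CC overlapped at their edges. The means were 9.20 ± 2.47 (SD, n = 3) in CP_0, 26.2 ± 2.81 in CC, 39.4 ± 11.9 in CP_7 and 132.4 ± 14.1 in CP_14. Its reads were few in CP_0, with 26, 23 and 36, and in CP_7, with 41, 71 and 57. The CP_14 libraries held 407, 428 and 420 reads of it, and the deeper CC libraries 137 to 190. By reads, miR-147 was at places 180 to 198 of the 545 miRNAs in CP_0 and at places 88 to 94 in CP_14.

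miR-147 rose by 2.05 on the log2 scale in the first 7 days (SE 0.298, limma adjusted p = 0.000778). It rose again by 1.69 in the second week (SE 0.226, limma adjusted p = 0.000687). Over all 14 days the log2 fold change was 3.74 (SE 0.195, limma adjusted p = 6.04e-06), or 14.4-fold by the ratio of the mean levels. Chondrocytes had less of it than CP_14, with a log2 fold change of -2.29 (SE 0.133, limma adjusted p = 4.34e-07) and a 5.06-fold lower mean, but more than CP_0 (1.28, SE 0.207, limma adjusted p = 0.00230). Each of these differences of miR-147 kept its direction and its call in all 20 alternative settings, but the sizes depended on the scaling. The log2 fold change of miR-147 in CP_7 against CP_0 was 3.06 with library size alone and 0.96 with unscaled reads, and in CP_14 against CP_7 it was 0.84 and 2.90. In CC it was -2.98 and -1.41 against CP_14 and 0.91 and 2.45 against CP_0, while CP_14 against CP_0 moved little (3.89 and 3.86). Against CP_7 the difference of CC was less firm. Its log2 fold change was -0.80 (SE 0.244, limma adjusted p = 0.0215), it lost its call without CP_7 replicate 1 (-0.67), 2 (-0.25) or 3 (-0.37) and without CC replicate 1 (-0.72) or 2 (-0.81), and it turned to 1.49 with unscaled reads.

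**Figure D2:**
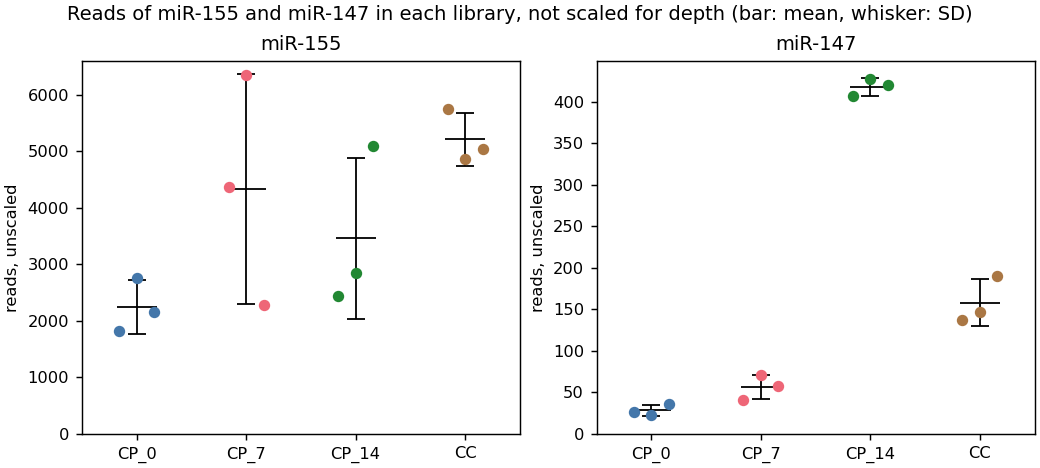
Reads of miR-155 (left) and miR-147 (right) in each library by group (x axis), on linear y axes from 0 and before any scaling for depth. Points are libraries and bars with whiskers are the mean and SD of 3 libraries. The CC libraries are the deepest, yet each CP_14 library has more reads of miR-147 (407 to 428) than any CC library (137 to 190).

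A ratio of the reads of a pair of miRNAs within a library needs no scaling. For each read of miR-147 the CP_0 libraries had 70.1, 120.0 and 59.7 reads of miR-155, the CP_7 libraries 106.5, 89.5 and 40.0, the CP_14 libraries 5.98, 6.66 and 12.1, and the CC libraries 42.0, 33.1 and 26.5. The ratio was at most 12.1 in the CP_14 libraries and at least 26.5 in all others, whereas CP_0 and CP_7 overlapped and CP_7 and CC overlapped. Both miRNAs were higher at day 7 than at day 0, and the balance between them shifted later, when miR-155 fell and miR-147 rose.

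**Figure D3:**
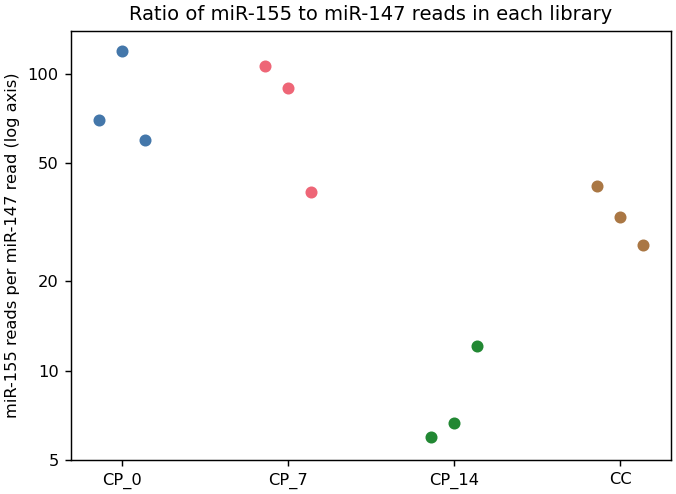
Reads of miR-155 for each read of miR-147 in the 12 libraries (y axis, log scale) by group (x axis). Each point is a library. The CP_14 libraries lie at 5.98 to 12.1, below all the libraries of CP_0, CP_7 and CC.

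The CP_0 libraries held miR-146b at 20.7, 15.9 and 5.14 normalized RPM, those of CP_7 at 11.2, 2.30 and 13.3, those of CP_14 at 2.80, 6.14 and 5.54, and those of CC at 12.4, 8.94 and 8.63. The highest and lowest libraries of CP_0 lay further apart than the means of any pair of groups, and CP_7 replicate 2 held 4 reads. The means were 4.82 ± 1.78 (SD, n = 3) in CP_14, 8.92 ± 5.83 in CP_7, 9.98 ± 2.08 in CC and 13.9 ± 7.94 in CP_0. No library had more than 71 reads of it, and the CP_7 and CP_14 libraries had 4 to 20, so that changes of miR-146b were measured far less well than those of miR-155.

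miR-146b was higher in CC than in CP_14, the one pair of groups that did not overlap, by 0.91 on the log2 scale (SE 0.265, limma adjusted p = 0.0115), whereas library size alone gave 0.31 and no call. It did not pass the test in the other 5 comparisons, where the limma adjusted p ran from 0.0840 to 0.855. The log2 fold changes were -0.62 (SE 0.748) for CP_7 against CP_0, -0.65 (SE 0.661) for CP_14 against CP_7, -1.19 (SE 0.504) for CP_14 against CP_0, -0.38 (SE 0.446) for CC against CP_0 and 0.14 (SE 0.605) for CC against CP_7. Some of these depended on the scaling. miR-146b was called with unscaled reads in CP_7 against CP_0 (-1.75, limma adjusted p = 0.0439) and in CC against CP_7 (2.41, limma adjusted p = 0.000940), and in CP_14 against CP_0 with upper-quartile factors (-1.41, limma adjusted p = 0.0459) and DESeq2 (-1.51, adjusted p = 0.0114). Others depended on single libraries. Without CP_0 replicate 3, the library with the erythroid reads and with the fewest miR-146b reads of its group (16), miR-146b was called lower in CP_14 than in CP_0 (log2 fold change -1.75, adjusted p = 0.00238) and lower in CC than in CP_0 (-0.90, adjusted p = 0.00725). Without CP_7 replicate 2 it was called lower in CP_14 than in CP_7 (-1.27, adjusted p = 0.0479). The part of the erythroid reads in these differences was not tested.

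miR-146a had 0, 1 and 0 reads in CP_0, 1, 2 and 2 in CP_7, 0, 1 and 2 in CP_14 and 0 in all 3 CC libraries. These 9 reads stood against 390 of miR-146b, which is 2.26% of both together (95% exact binomial interval 1.04% to 4.24%, counting error only). The share was 12.2% (4.08% to 26.2%) in CP_7, from 5 reads of miR-146a, 6% (1.25% to 16.5%) in CP_14, from 3, 0.775% (0.0196% to 4.24%) in CP_0, from 1, and 0% (up to 2.04%) in CC, and the mean over the libraries was 5.54%. No library passed 2 reads of it, and since 0 reads allow up to 3, no fold change is given. In the CC libraries, 0 reads allow a level of up to 0.309 RPM. Of the miR-146 names it was thus miR-146b that took most of the reads, with more than miR-146a in each of the 12 libraries. The sources used here do not say how reads that match both were assigned.

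**Figure D4:**
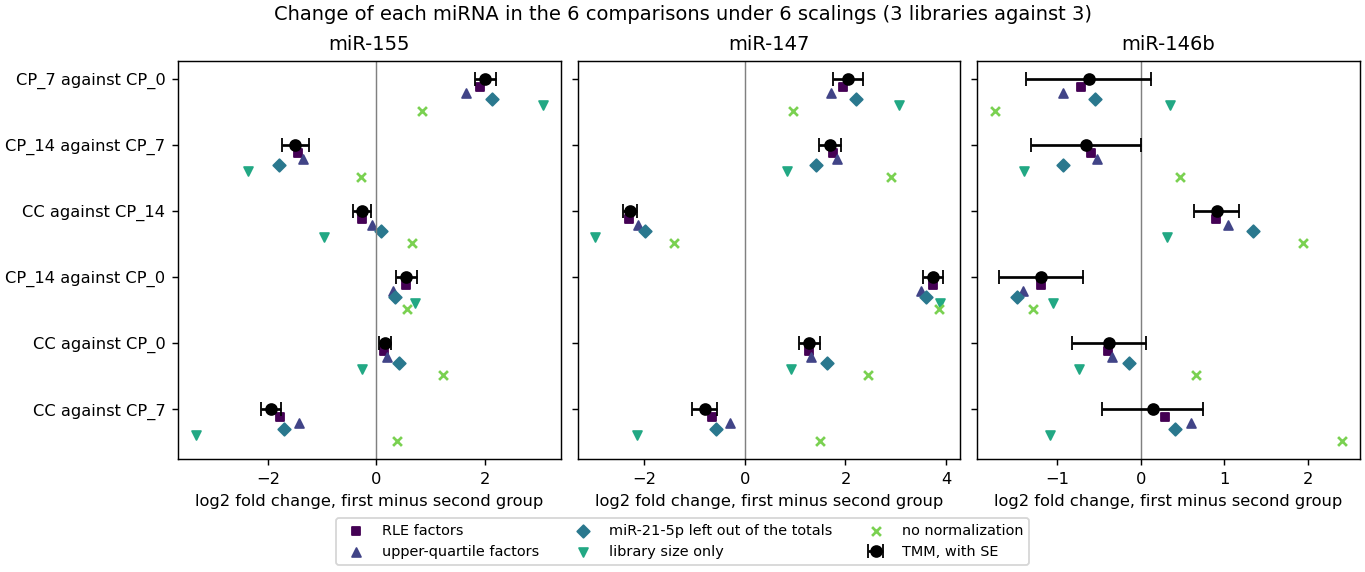
Log2 fold change (x axis, first group minus second) of miR-155, miR-147 and miR-146b in the 6 comparisons (y axis), fitted by limma with TMM factors (black points, whiskers of 1 SE) and with 5 other scalings (symbols). miR-147 stays on one side of 0 under all 6 scalings except in CC against CP_7, whereas miR-155 in the 3 comparisons of CC and miR-146b in 4 comparisons have symbols on both sides.

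Over the 12 libraries, the levels on the log2 scale of 250 other miRNAs with a mean of at least 10 reads were compared with each of the 3 measured ones. The miRNAs of a library share its depth and composition factor, and the correlations are descriptions over 4 groups. The course of miR-147 was most like those of miR-148d (Pearson r = 0.98, Spearman rho = 0.98, n = 12), miR-2285l (r = 0.97) and miR-423-5p (r = 0.92). miR-148d had a mean level of 46.5 ± 5.28 (SD, n = 3) normalized RPM in CP_0, 93.0 ± 16.5 in CC, 129 ± 23.1 in CP_7 and 415 ± 57.9 in CP_14, the same order of groups as miR-147. miR-155 was most like miR-222 (r = 0.98), miR-186 (r = 0.96) and miR-29b (r = 0.95), and miR-222 averaged 584 ± 82.4 normalized RPM in CP_0, 626 ± 81.6 in CC, 709 ± 29.4 in CP_14 and 1184 ± 229 in CP_7, again the order of miR-155. As miR-148d and miR-222 were picked for their likeness in these libraries, the shared order of groups adds nothing to r. No miRNA came as close to miR-146b, where the highest were novel_74 (r = 0.69), novel_123 (r = 0.68) and let-7a-3p (r = 0.59). With library size alone the first and second places of miR-147 and miR-155 were unchanged, while miR-423-5p came at place 19 (r = 0.81), miR-29b at place 5 and let-7a-3p at place 8. Between the members themselves r was 0.27 for miR-147 and miR-155, -0.60 for miR-146b and miR-147 and -0.28 for miR-146b and miR-155.

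Other miRNAs linked to Toll-like receptor or NF-kappaB signalling or to macrophage activation (both arms of miR-21, miR-9, miR-125b, miR-132, miR-181a, miR-181b, miR-187, miR-212, miR-221, miR-222 and miR-223 where listed, 13 names) were called in both directions in every comparison, as were all miRNAs. From CP_0 to CP_7, 5 of 11 tested were called higher and 4 lower, beside 35.8% and 28% of all miRNAs, with a median log2 fold change of 0.74 against 0.075 over all miRNAs. miR-181a (2.30), miR-181b (2.87), miR-221 (1.86), miR-222 (1.06) and miR-9-3p (2.44) rose, and miR-21-5p (-2.45), miR-21-3p (-0.92), miR-125b (-0.52) and miR-132 (-0.70) fell. With library size alone miR-125b, miR-132 and miR-21-3p turned to 0.55, 0.35 and 0.099, and with unscaled reads miR-222 turned to -0.096. From CP_7 to CP_14, 2 of 11 were called higher and 4 lower, beside 24.4% and 28.5% of all (median -0.25 against -0.0089), and from CP_0 to CP_14, 5 of 12 were higher and 2 lower, beside 24.8% and 21.2% (0.45 against 0.010). In CC, 3 of 12 were called higher and 7 lower than in CP_14, beside 37.7% and 37% (-0.87 against 0.086). Against CP_0, 5 of 10 were higher in CC and 3 lower, beside 30% and 25.8% (0.10 against 0.053), and against CP_7, 3 of 11 were higher and 7 lower, beside 29% and 38.4% (-1.18 against -0.089).

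The balance of these calls depended on the scaling. With library size alone the list had 7 higher and 1 lower in CP_7 against CP_0, 1 and 7 in CP_14 against CP_7, 2 and 9 in CC against CP_14, 6 and 2 in CP_14 against CP_0, 2 and 5 in CC against CP_0, and 1 and 8 in CC against CP_7. With unscaled reads the numbers called were 3 and 4, 5 and 0, 4 and 2, 5 and 1, 8 and 1, and 6 and 0, for the comparisons named in that order. The prevailing direction thus turned between the 2 scalings in every comparison except CP_14 against CP_0. The median log2 fold change of all miRNAs tested turned in the same comparisons. With library size alone and with unscaled reads it was 1.12 and -1.04 in CP_7 against CP_0, and -0.84 and 1.19 in CP_14 against CP_7. In CC it was -0.54 and 1.01 against CP_14, -0.33 and 1.13 against CP_0, and -1.44 and 2.15 against CP_7. In CP_14 against CP_0 it was 0.16 and 0.025. The turn of the list is therefore not read as a result about its members.

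The other marker lists were set beside miR-155 and miR-147 by their summed normalized RPM. The skeletal muscle miRNAs (miR-1, miR-206, miR-133a and miR-133b) summed to 621 to 798 for CP_0, 1156 to 1285 for CC, 1659.9 to 1803 for CP_14 and 2169 to 3937 for CP_7, so that their groups followed one another in the order of miR-155. The sums came mostly from miR-1, with means of 641 in CP_0, 1149 in CC, 1610 in CP_14 and 2630 in CP_7. The means of the other names had the same order, but within CP_7 miR-206 had 0 to 263 reads and miR-133b 4 to 37. The erythroid miRNAs (miR-451, miR-144 and miR-486) summed to 11.2 to 86.3 for CP_7, 12.7, 14.4 and 4895 for the CP_0 libraries, 2132 to 2609 for CC and 3729 to 5053 for CP_14, and were thus highest where miR-147 was highest, apart from CP_0 replicate 3. These sums came from miR-451 and miR-486. The third name, miR-144, had 0 reads in 9 of the 12 libraries, all of CP_7 and CP_14 among them, and at most 2 elsewhere. The endothelial miR-126 summed to at most 81.7 outside CP_7 and to 95.2 to 1474 within it. The epithelial miRNAs (the miR-200 family and miR-205) came to 1.97 to 7.98 in CP_7, with 2 of 6 names at 0 reads, and to 19.7 to 47.8 elsewhere. The part of these cell types in the levels of miR-155 and miR-147 was not tested.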

How the data were processed

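Small RNA libraries were made with a NEBNext kit and sequenced on an Illumina instrument. The submitters' processing notes name CASAVA, bcl2fastq 1.8.4 and Bowtie, without versions for the first and the last. The sources used here do not give the trimming, genome build, counter or miRNA database. The authors deposited RPM values under the header TPM: a miRNA's reads were scaled so that the listed miRNAs of a library sum to 1000000, and length played no part. All values were whole multiples of 1 read (tolerance 0.01 read), which gave the reads back. No pair of libraries of a group agreed within sampling noise. The closest were CP_14 replicates 1 and 2, with a chi-squared statistic per degree of freedom of 4.92, against 25.6 to 252 for the other pairs. Reads have no molecular identifiers, so that limits and intervals cover counting error only.

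For each comparison, its 6 libraries were fitted with limma 3.58.1 (intensity trend, two-sided) on log2(TMM-normalized RPM + 1), after the filterByExpr filter of edgeR 4.0.16 (minimum count 10, minimum total 15), in R 4.3.3, with Benjamini-Hochberg adjustment over all miRNAs tested and a threshold of 0.05. A fold change on this scale understates changes of low miRNAs. With 3 libraries against 3, an exact permutation test cannot go below p = 0.1 and was not used for calls. The procedure was also run on simulated data, and no statement here rests on that run. Normalized RPM in the text uses TMM factors over all 12 libraries.

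The members, the marker lists and the inflammation-linked list were chosen with earlier results of these data known. Named are all members, the 3 miRNAs most like each measured member, miR-21-5p, and members of the lists; miR-140 is on a list, and miR-451, miR-126-3p and miR-9-5p were named after their values were seen. Alternatives were RLE and upper-quartile factors, library size alone, unscaled reads, miR-21-5p left out of the scaling, other filters and pseudocounts, edgeR and DESeq2 1.42.0 on the recovered reads, one fit of all 12 libraries, a replicate block, a 2-fold threshold and leaving out each library. Sequences were not used here.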

Additional observations from a re-analysis of the deposited data

How the results depend on the processing

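Each setting below changed 1 choice. The log2 fold changes of miR-146b, miR-147 and miR-155 kept direction and side of the threshold in 311 cases, lost a call in 27, gained one in 10 and turned in 11. The cause of these shifts was not tested. Fits called in neither setting count as kept. The other filters, the replicate block and the 2-fold threshold left the log2 fold changes as they were, so that no direction could turn there. The direction of miR-155 turned with unscaled reads in CC against CP_14 (0.66) and CC against CP_7 (0.38), with miR-21-5p left out in CC against CP_14 (0.083), and with library size alone in CC against CP_0 (-0.26). That of miR-147 turned with unscaled reads in CC against CP_7 (1.49). That of miR-146b turned with library size alone in CP_7 against CP_0 (0.35) and CC against CP_7 (-1.09), with unscaled reads in CP_14 against CP_7 (0.46) and CC against CP_0 (0.66), with edgeR in CC against CP_7 (-0.22), and without CP_7 replicate 2 in CC against CP_7 (-0.054, where leaving out single libraries gave -0.054 to 0.78).

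The number of the 4 names called was 1 in place of 2 for CP_14 against CP_7 with unscaled reads, for CC against CP_14 with a mean of at least 10 RPM, one fit of all 12 libraries or a 2-fold threshold, for CP_14 against CP_0 with RLE factors, unscaled reads, miR-21-5p left out, a mean of at least 10 RPM, one fit of all 12 libraries or a 2-fold threshold, and for CC against CP_7 with upper-quartile factors, miR-21-5p left out, one fit of all 12 libraries or a 2-fold threshold. It was 3 in place of 2 for CP_7 against CP_0 and CC against CP_7 with no filter, where miR-146a was called at 0 to 2 reads a library, for CC against CP_14 with unscaled reads, and for CP_14 against CP_0 with DESeq2. It was 2 in place of 1 for CC against CP_0 with library size alone, unscaled reads or miR-21-5p left out. A number of 2 did not always mean the names called with TMM: miR-146b was called with unscaled reads in CP_7 against CP_0 and CC against CP_7 and with upper-quartile factors in CP_14 against CP_0, while miR-155 was not. Leaving out single libraries gave 2 to 3 calls for CP_14 against CP_7 and 1 to 2 each for CP_14 against CP_0, CC against CP_0 and CC against CP_7.

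With the replicate block the number was 1 in place of 2 for CP_14 against CP_0, where miR-155 had an adjusted p of 0.0667 by limma, and no other call of these names changed. No pairing of the libraries by replicate number was seen. Of 18 pairs of libraries with the same number, 1 correlated above 0.1 in its deviations from the group means (r from -0.40 to 0.125). Of 36 pairs with different numbers, 9 did (r from -0.3 to 0.401). Of 12 libraries, 2 correlated best with their own number. With few libraries in a group, this check cannot exclude that a number stands for a shared animal or batch. Over all miRNAs the block gave 100 calls in place of 130 for CP_14 against CP_7 and 118 in place of 145 for CC against CP_0. Depth limits miR-146a and miR-146b in all groups and miR-147 in CP_7 and CP_0, where they rest on fewer than 100 reads a library.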
